A study of Mus musculus with 6 samples.

Results

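Sgk1 encodes the serum- and glucocorticoid-regulated kinase 1, and it was measured here by every probe set whose annotation gives Sgk1 as its single gene symbol, on all 6 arrays. That rule found 1 probe set, 97890_at, for 1 of the 8251 genes that the array names by a single symbol. The cells were mIMCD3, an established line from the mouse inner medullary collecting duct, the last segment of the kidney tubule. They received vehicle or aldosterone, the steroid hormone that drives sodium retention, for 1 h. There were 3 replications of 1 vehicle and 1 aldosterone array, so each group holds 3 arrays. All groups share the same cell line, and no genotype or second agent is given in the labels. The dose of aldosterone is not given in the sources used here, nor is it said whether the repeats came from separate cultures, so p-values reflect only how these arrays spread, which may be technical.

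Sgk1 is a serine/threonine kinase of the AGC family, close to the Akt kinases. Its gene is best known as an early target of mineralocorticoid and glucocorticoid receptors, and serum and hypertonic stress induce it as well. The protein is short-lived and becomes active when the kinase complex mTORC2 and the kinase PDK1 phosphorylate it, downstream of phosphoinositide 3-kinase. In the collecting duct, active Sgk1 phosphorylates the ubiquitin ligase Nedd4-2, made from the gene Nedd4l, which then removes fewer epithelial sodium channels from the cell surface.

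Steroid receptors of this class bind an inverted repeat of AGAACA, that is AGAACA, a spacer of 3 bases and TGTTCT. RefSeq (assembly GRCm38.p6) places 6 transcript starts of Sgk1 on the forward strand of chromosome 10, and the windows searched ran from 250 bases before to 50 bases after each start. The sequences before the last 2 starts are shown because the former holds that repeat without a changed letter and the latter, the start nearest the gene's end, holds a TATA box. Start 4 also holds TATAAA, 28 to 23 bases before it, and 1 AGAACA, and is not shown. They are written 5' to 3' on the forward strand, at chr10:21993640-21993889 for start 5 and chr10:21994416-21994665 for start 6. Capitals mark the repeat with its spacer in the first and TATAAA in the second.
start 5: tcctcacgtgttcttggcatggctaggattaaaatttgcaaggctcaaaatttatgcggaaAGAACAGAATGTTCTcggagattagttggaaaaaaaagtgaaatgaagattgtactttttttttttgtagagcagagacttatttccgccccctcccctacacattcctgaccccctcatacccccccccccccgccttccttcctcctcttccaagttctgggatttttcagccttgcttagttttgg
start 6: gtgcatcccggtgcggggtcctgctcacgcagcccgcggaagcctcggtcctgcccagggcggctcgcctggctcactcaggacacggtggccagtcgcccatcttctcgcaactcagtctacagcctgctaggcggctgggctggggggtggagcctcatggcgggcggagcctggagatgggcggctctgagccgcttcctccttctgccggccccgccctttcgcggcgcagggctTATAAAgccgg

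The repeat read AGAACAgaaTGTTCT, here with its spacer in lower case, at chr10:21993701-21993715. It lay 189 to 175 bases before start 5, and 965 to 951 bases before start 6. Of 32851 windows of 300 bases, 3 held the repeat exactly (0.00913%), which belonged to 3 of 27025 genes (0.0111%). Sgk1 was the only one of these 3 genes that could be tested on the array. The window of start 5 also held AGAACA on its own, on either strand, at 3 places, of which 2 were the arms of the repeat, a short motif found in 19% of all windows. The same window held 1 GC box (GGGCGG, on either strand, in 35.7% of all windows) and had a GC content of 46.3%. The window of start 6 held 4 GC boxes, had a GC content of 69.7% and contained TATAAA, found in 13.6% of all windows on either strand, 11 to 6 bases before the start. The probe set's own position was not mapped, so which of the 6 starts its signal comes from was not determined.

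**Figure D1:**
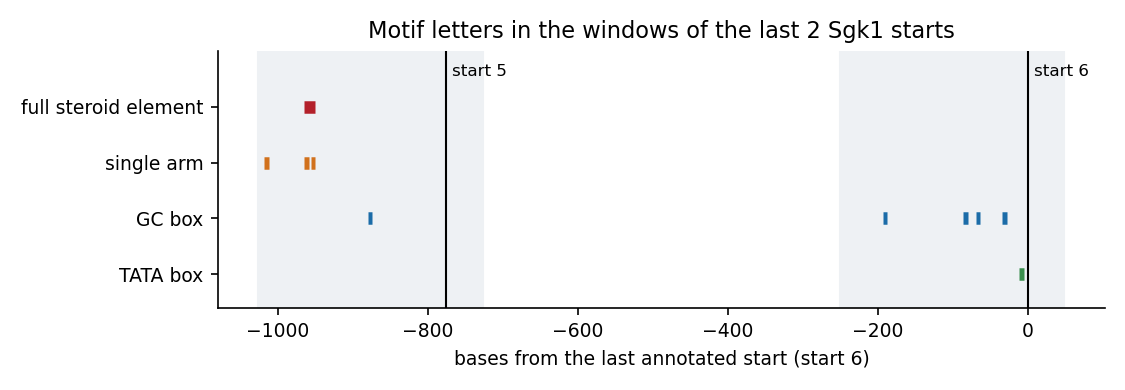
Motif letters in the windows of starts 5 and 6 of Sgk1. The horizontal axis gives bases from the last annotated start, shaded bands are the windows searched, black lines are the starts and coloured marks are matches on either strand; the single mark in the top row is the repeat, 965 to 951 bases before start 6.

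Near matches to the repeat were found in few tested genes. Allowing 1 of its 12 fixed letters to differ, 54 windows (0.164%) of 52 genes held it, and 5 of those genes were tested, Sgk1 included. The others, named after their values were seen, were Plpp3 at a log2 difference between aldosterone and vehicle of 0.10, Psph at -0.13, Serpinf2 at -0.31 and Car14 at -0.49. Their median was -0.22, against -0.002 over the 4591 tested genes that have a window, and 0 of the 4 were higher and 0 lower in all 3 replications, against 10.6% and 11.7% of those 4591 genes. Among genes known for early induction by corticosteroids, 9 had a window, and the best match differed by 3 letters in Dusp1, Errfi1 and Ndrg2, by 4 in Edn1 and Tsc22d3, by 5 in Per1 and Klf9 and by 6 in Fkbp5 and Usp2. How often any window comes within 3 to 6 letters was not computed, and some of these genes had more than 1 window. Such counts therefore do not mark a near element. Sequence outside the windows was not searched, so whether the corticosteroid-induced genes hold the repeat elsewhere was not tested. A match is a description of letters and shows no binding.

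The 6 arrays did not share a scale as deposited, which bears on every value of the third aldosterone array. The trimmed mean of all deposited intensities lay between 2488 and 2493 on 5 arrays and was 86.5 on the aldosterone array of replication 3, lower by a factor of 28.8. All arrays were therefore scaled to a common trimmed mean of 2090. The deposited Sgk1 intensities were 1260.3, 959.4 and 762.9 with vehicle in replications 1, 2 and 3, and 3622.5, 2756.3 and 109.1 with aldosterone, so the direction in replication 3 rests on the scaling. Measures that need no common scale are given below. The labelled cell type was checked against its markers: all 11 tubular epithelial markers, such as Krt8, Krt18 and Cdh16, were on the array and bright enough to test. None of the 6 collecting duct markers on the array was, which included Aqp2, Aqp4, Avpr2 and Hsd11b2. In bulk RNA of this kind fewer cells that express a gene and less RNA per cell cannot be told apart.

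Aldosterone arrays read about 3 times as high for Sgk1 as vehicle arrays. The scaled intensity was 1059, 805 and 640 with vehicle and 3043, 2311 and 2637 with aldosterone, in the order of replications 1, 2 and 3. The 2 groups did not overlap, and the lowest aldosterone array was 2.18 times the highest vehicle array. Across all pairs of an aldosterone and a vehicle array the ratio ran from 2.18 to 4.76. Group means were 834 ± 211 for vehicle and 2664 ± 367 for aldosterone (n = 3 per group, SD), a spread of 25.3% and 13.8% of the mean. In ascending order, the vehicle arrays of replications 3, 2 and 1 came first, then the aldosterone arrays of replications 2, 3 and 1. Within a group, neighbouring arrays in that order differ by amounts that cannot be separated from array error, since each replication holds 1 array of each kind.

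**Figure D2:**
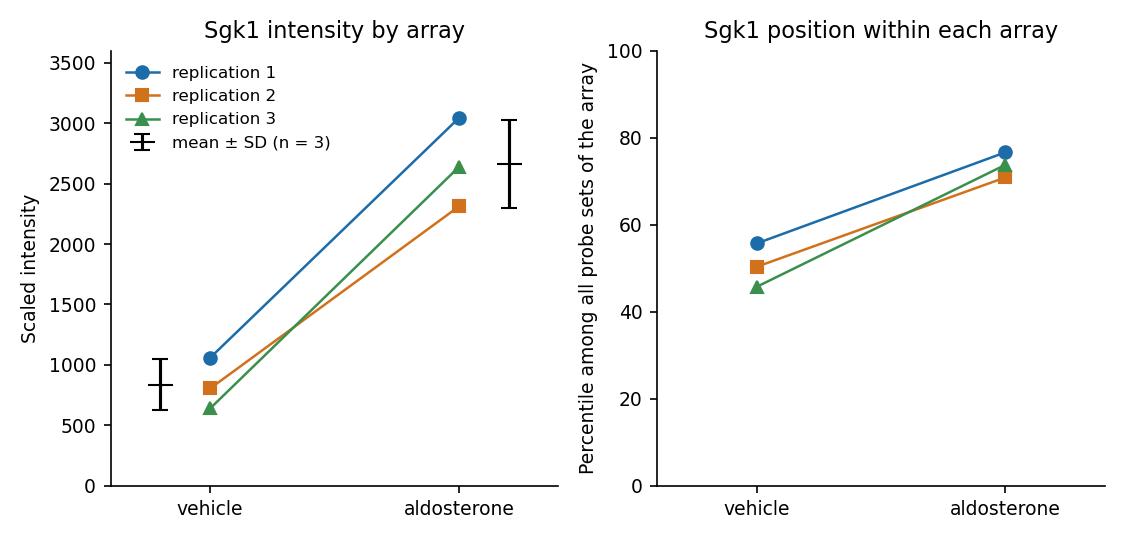
Scaled intensity of Sgk1 on each array (left) and its percentile among all probe sets of the same array (right), with 1 line per replication and the mean ± SD of each group (n = 3). All aldosterone arrays, 2311 to 3043, lie above all vehicle arrays, 640 to 1059.

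On the log2 scale, with a pseudocount of 53.0 that slightly understates ratios, aldosterone minus vehicle came to 1.63 (standard error, SE, 0.223), that is 3.10-fold with a 95% interval of 2.19 to 4.39. With the replication number as a block the SE was 0.176 and the interval 2.35 to 4.09. The limma test on group alone gave an adjusted p = 0.242 over the 7453 probe sets tested, and the blocked fit gave an adjusted p = 0.0509. Sgk1 had the smallest p of all tested probe sets in both fits, and its adjusted p did not pass 0.05 in either. With the block, leaving out replication 2 gave an adjusted p = 0.000391 and leaving out replication 3 gave an adjusted p = 0.00592, both under 0.05. Leaving out replication 1 gave an adjusted p = 0.595. These reduced fits were added after seeing the data and leave few residual degrees of freedom. Without replication 2 or 3 the SE of Sgk1 rose, to 0.210 and 0.230, so the smaller p is no stronger evidence. With all 3 replications, neither the fit on group alone nor the blocked fit called any probe set at an adjusted p under 0.05 (0% of 7453). On group alone 72, or 0.966%, had an unadjusted p under 0.05. An exact permutation test over the 6 arrays gave p = 0.1, the smallest that 3 arrays against 3 allow. The standard error of Sgk1 lay at the 57.0 percentile of all tested probe sets, close to their median of 0.209.

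By size the difference of Sgk1 ranked 2 of 7453. The largest was that of a probe set without a gene name, 94240_i_at, at 1.81, whose 3 replications gave 2.44, 2.56 and 0.42. Next after Sgk1 came Smyd2, a lysine methyltransferase, at 1.54, Rag1, a component of the V(D)J recombinase, at 1.31 (2.19, 0.12 and 1.61 by replication), and Per1, a repressor in the circadian clock, at 1.26. The most negative differences were smaller, from -0.98 for the noradrenaline transporter Slc6a2 through -0.97 for H2-M10.1 and -0.96 for Mok to -0.91 for Aplf. Of these 4, only Aplf was lower in all 3 replications: Slc6a2 gave 0.40 in replication 3, H2-M10.1 0.85 in replication 1 and Mok 0.24 in replication 3. Other probe sets of H2-M10.1 gave 0.03, from a brighter one, and -0.37, from one too dim to test. Likewise too dim, the other probe set of Slc6a2 gave -0.50 and that of Rag1 0.33 (1.35, 0.30 and -0.65 by replication). Of all tested probe sets, 142 (1.91%) had every aldosterone array above every vehicle array. In 2 of them, those of Sgk1 and Smyd2, the gap was at least as wide on the log2 scale as that of Sgk1.

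The difference was also present within each replication, where it has no test because each replication holds 1 array per treatment. Sgk1 was higher by a log2 difference of 1.48 in replication 1, 1.46 in replication 2 and 1.96 in replication 3, or 2.78-, 2.76- and 3.88-fold. These differences ranked 27, 61 and 5 among the 7453 tested probe sets, whose own differences had standard deviations of 0.352, 0.426 and 0.337. The number of probe sets with a larger difference was thus 26, 60 and 4 in the single replications, but few kept theirs in all. Only 3 probe sets (0.0403%) were at least 2-fold higher in all 3 replications: that of Sgk1, 1 of the 2 for Edn1 and 1 for Smyd2. The smallest of the 3 differences of Sgk1, 1.46, was second to that of Smyd2, 1.48.

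**Figure D3:**
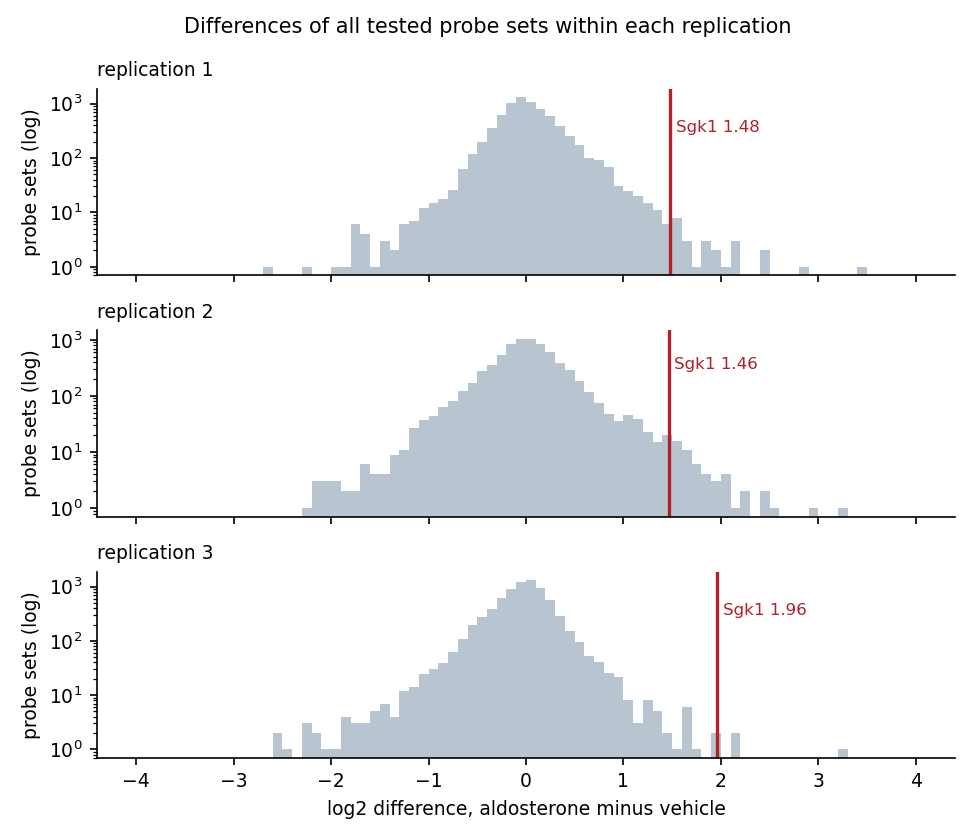
Histograms of the log2 difference between aldosterone and vehicle for the 7453 tested probe sets in each replication (vertical axis logarithmic), with Sgk1 as a red line. Sgk1 lies in the upper tail of each, at 1.48, 1.46 and 1.96.

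Measures taken within an array gave the same direction. Sgk1 stood at percentile 55.7, 50.3 and 45.7 of its array's probe sets with vehicle and at 76.6, 70.9 and 73.8 with aldosterone, a gain of 20.9, 20.5 and 28.1 points in replications 1, 2 and 3. Its ratio to the array's median was 2.70, 2.99 and 4.47 times as high with aldosterone as with vehicle. Its ratio to the geometric mean of the 2 probe sets of Actb, the gene of beta-actin, was 3.11, 3.51 and 2.80 times as high. Such ratios show unequal change within an array only. The last set is not firm, since the 2 Actb probe sets disagreed: their scaled intensities on the vehicle and aldosterone arrays of replication 2 were 6066 and 4318 for 101578_f_at, and 2986 and 2806 for 95705_s_at.

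Replication 3 gave the largest difference by most measures, but not by all. Its log2 difference was 2.07 with scaling by the median, against 1.39 and 1.52 in replications 1 and 2, and it was 2.00 with quantile normalization, against 1.47 and 1.46. Scaling by Actb gave 1.43 in replication 3, against 1.58 and 1.76, and so turned the order. The level of Sgk1 over both treatments differed between replications by 0.44 on the log2 scale, or 1.36-fold. The limma F test of replication gave an adjusted p = 0.316, while 436 of 5640 genes (7.73%) passed it.

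Genes around the kinase were taken from 9 lists holding 135 genes, each represented by its brightest probe set. The lists had 99 genes on the array, of which 81 were bright enough to test. The adjusted p of limma passed 0.05 for 0 of the 81, and for 0 with the replicate block. At an unadjusted p under 0.05, 5 of the 81 were higher and 0 lower, against 0.55% higher and 0.319% lower over the 5640 tested genes. With the block 8 were higher and 0 lower, against 1.9% and 1.28%. All 3 replications were higher for 15 genes and lower for 9, against 10.5% and 11.7% of all tested genes. The list of early corticosteroid-induced genes held 4 of the 5, 6 of the 8 and 7 of the 15 higher genes. Because the lists were written with results of these data known, such counts are no independent evidence. The shares over all tested genes given here apply to the counts of each single list below as well. The median of the 81 log2 differences was -0.004, against -0.0003 for all tested probe sets.

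**Figure D4:**
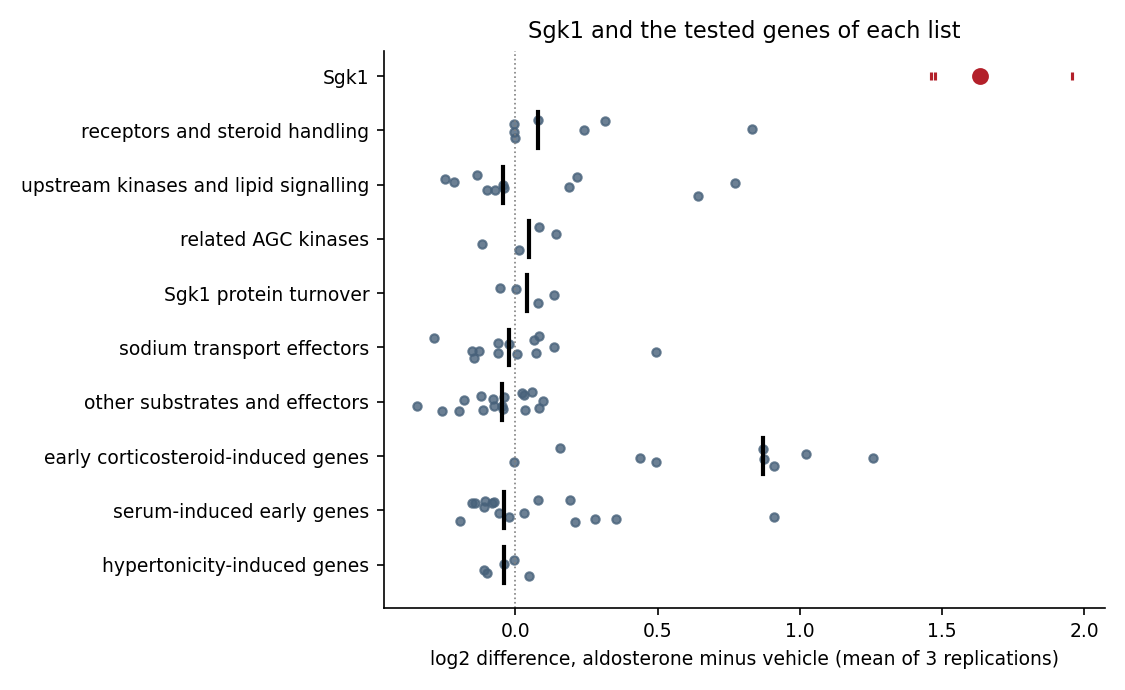
Log2 difference between aldosterone and vehicle (mean of 3 replications) for Sgk1, in red with a tick for each replication, and for the tested genes of each list, with 1 point per gene and the list's median as a black bar. Sgk1 lies at 1.63, to the right of all list genes, and the early corticosteroid-induced genes have the highest median, 0.87.

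Upstream of the gene stand the receptors and the proteins that handle the steroid. Nr3c2, the mineralocorticoid receptor, is not named by a single-symbol probe set on this array. Nr3c1, the glucocorticoid receptor, gave 529, 212 and 879 on the vehicle arrays of replications 1, 2 and 3, and 395, 539 and 587 on the aldosterone arrays. These values overlapped widely, the log2 difference being 0.08 (SE 0.450). Hsd11b2, which inactivates cortisol and corticosterone and so keeps the mineralocorticoid receptor free for aldosterone, was too dim to test. Of the 7 tested genes on this list, 1, Ncoa1, was higher and 0 were lower in all 3 replications, and the median log2 difference was 0.08. The receptor coactivators gave 0.32 for Ncoa1, 0.83 (SE 0.474) for Ncoa2 and 0.24 for Ncoa3. By replication Ncoa2 gave 1.15, 1.72 and -0.38. Its mean log2 value, 8.89, lay just above the filter at 8.87. The chaperone Hsp90aa1 and the immunophilin Fkbp4, which associate with steroid receptors, gave -0.004 and -0.002, values that both turned positive with scaling by the median. A dimmer probe set of Fkbp4 gave 0.15, higher in all 3 replications (0.07, 0.33 and 0.04). That of Hsp90aa1, too dim to test, gave 0.28 (0.50, 0.41 and -0.07).

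Of 11 tested genes for kinases and lipid signalling above Sgk1, 1, Mapk7, reached an unadjusted p under 0.05. At that p 0.55% of all tested genes were higher and 0.319% lower. Pdpk1, the gene of PDK1, averaged 3328 ± 403 on vehicle and 3905 ± 762 on aldosterone arrays (n = 3 per group, SD). Its log2 difference was 0.22 (SE 0.184), and its replications gave 0.36, 0.13 and 0.16. A dimmer probe set of Pdpk1 gave -0.07, with 0.16, -0.15 and -0.23, so the 2 disagree. Of the genes listed for the complex mTORC2, Mtor gave -0.10, Mlst8 -0.14 and Prr5 -0.22 (-0.94, 0.35 and -0.05 by replication). Rictor and Mapkap1, also on this list, are not named by a single-symbol probe set on this array, so the complex was read only in part. Wnk1, a kinase that activates Sgk1 upstream, gave -0.07. Its dimmer probe sets gave -0.01 and 0.40, the latter higher in all 3 replications (0.02, 0.25 and 0.93), so they disagree. The stress kinase Mapk14 gave -0.04, and Pik3r1, a regulatory subunit of phosphoinositide 3-kinase, gave 0.77 (SE 0.550). Mapk7, the gene of the kinase ERK5, gave 1496, 867 and 964 on vehicle arrays, then 1656, 1656 and 1837 on aldosterone arrays. The groups did not overlap, but in replication 1 the difference was 0.14 against 0.89 in the others, and the limma fit gave 0.64 (SE 0.230) with an adjusted p = 0.9995. Map2k5, the kinase that activates ERK5, gave -0.25. In this list 3 genes were higher and 2 lower in all 3 replications, and the median was -0.04.

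Relatives of the kinase had log2 differences of -0.12 to 0.14. Sgk2 and Sgk3 are not named by a single-symbol probe set on this array. Akt1 gave a log2 difference of -0.12, Akt2 0.14, the ribosomal S6 kinase gene Rps6kb2 0.08 and Pkn2 0.01, the last turning negative with scaling by Actb. Among these 4, the median was 0.05, and 1, Akt2, was higher in all 3 replications while 0 were lower.

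Of the proteins that set how long Sgk1 lasts, 4 could be tested, and they spanned log2 differences of -0.05 to 0.14 with a median of 0.04. Stub1, a ubiquitin ligase that targets Sgk1, gave -0.05, and the ligase subunits Cul1 and Skp1 gave 0.003, turning negative with scaling by Actb, and 0.08. Nedd4l averaged 4912 ± 703 on vehicle and 5368 ± 210 on aldosterone arrays (n = 3 per group, SD). Its log2 difference was 0.14 (SE 0.151), and its other probe set gave 0.03. In this list 1 gene was higher and 1 lower in all 3 replications.

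Effectors of sodium transport lay on both sides of 0 at 1 h. The channel subunits Scnn1a, Scnn1b and Scnn1g are not named by a single-symbol probe set on this array. Of 13 tested genes, 1 was higher and 3 lower in all 3 replications, against 10.5% and 11.7% of all tested genes, and the median was -0.02. The gene higher in all 3 was Usp2, a deubiquitinase that stabilises the channel, which gave 390, 718 and 687 on vehicle arrays, then 645, 915 and 991 on aldosterone arrays. Its groups overlapped, although each aldosterone array was above the vehicle array of its replication, and the limma fit gave 0.49 (SE 0.305) with an adjusted p = 0.9995. Another probe set of Usp2, too dim to test, gave 0.09, 1.44 and -0.54 by replication, so the 2 disagree. The 14-3-3 genes, whose proteins bind Nedd4-2 once Sgk1 has phosphorylated it, gave -0.15 for Ywhah, -0.06 for Ywhaq and 0.07 for Ywhaz. The scaffold gene Slc9a3r2 gave -0.29, and Atp1b1, a subunit of the sodium pump, gave 0.08.

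Among 17 tested genes for other substrates and effectors of the kinase, 0 were higher and 2 lower in all 3 replications, and the median was -0.05. Ndrg1, whose protein is a standard readout of Sgk1 activity by its phosphorylation, averaged 10140 ± 1319 on vehicle and 9811 ± 1402 on aldosterone arrays (n = 3 per group, SD). Its log2 difference was -0.05, and its other probe set gave 0.03. The arrays measure RNA and say nothing of phosphorylation. The amino acid transporter Slc1a5 gave -0.35, the death-promoting Bcl2 relative Bad -0.26, the kinase Gsk3a -0.08 and Ranbp1 -0.12. A dimmer probe set of Bad gave 0.04 (0.42, 0.02 and -0.34 by replication), so the 2 disagree.

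The list of genes known for early induction by corticosteroids stood closest to Sgk1, with a median log2 difference of 0.87. Of its 9 tested genes, 7 were higher and 0 lower in all 3 replications, against 10.5% and 11.7% of all tested genes. The list was written with results of these data known, so its direction is no independent evidence. An unadjusted p under 0.05 was reached by 4 of the 9, Per1, Edn1, Cebpd and Dusp1, and with the block also by Errfi1 and Ccn2. Of all tested genes 0.55% were higher at that p, and 1.9% with the block. Per1 gave 1118, 981 and 1170 on vehicle arrays, then 2765, 3047 and 2265 on aldosterone arrays. Those groups did not overlap, and the log2 difference was 1.26 (SE 0.185), with an adjusted p = 0.242 from limma, or 0.0722 with the block. Edn1, the gene of endothelin-1, which inhibits sodium uptake in the collecting duct, had log2 differences of 1.02 and 1.25 at its 2 probe sets.

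Cebpd, a transcription factor, averaged 3480 ± 1097 on vehicle and 6201 ± 325 on aldosterone arrays, and Dusp1, a phosphatase that inactivates MAP kinases, 2412 ± 1123 and 4415 ± 1907 (n = 3 per group, SD). Their log2 differences were both 0.87. Errfi1, an inhibitor of the EGF receptor, gave 0.44, with 0.14 without the aldosterone array of replication 1 and 0.78 without the vehicle array of replication 1. Ccn2, a matricellular growth factor, gave 0.91, with 0.20 without the vehicle array of replication 3 and 1.73 without that of replication 1. Not every known steroid target followed: Fkbp5 read 3457 ± 225 and 3459 ± 438, with a log2 difference of -0.005, and Klf9 gave 0.16. Tsc22d3, the gene of Gilz, was too dim to test.

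Serum and hypertonic stress also induce Sgk1, and genes known for each response had a median log2 difference of -0.04. Of 16 tested serum-induced genes, 3 were higher and 0 lower in all 3 replications. Ccn2, which is on this list too, and Klf6 at 0.35 had an unadjusted p under 0.05 with the block. Without the aldosterone array of replication 1 the value of Klf6 was 0.046, and without the vehicle array of that replication 0.82. Fosb gave 0.28, Atf3 0.19, Ier3 -0.11 and Plk2 -0.15. A dimmer tested probe set of Atf3 gave -0.001 (0.13, 0.10 and -0.23 by replication), and another, too dim to test, gave -0.07. The list separated the replications instead: 12 of its 16 genes passed the limma F test of replication, against 7.73% of all tested genes. For 14 the vehicle array of replication 1 was the brightest of the 3. Over the 81 genes of all lists, these included, that held for 36, and the share over all tested genes was not computed. The same array was the brightest vehicle array for Sgk1, at 1059 against 805 and 640, and the part of these genes in its level was not tested. Of the 5 tested hypertonicity-induced genes, 0 were higher and 1, Hspa4l, lower in all 3 replications. They ran from -0.11 for Hspa4l through -0.10 for Hspa1a, -0.04 for Slc38a2 and -0.004 for Slc6a6 to 0.05 for Hspa1b. The last 2 changed sign under another scaling, Slc6a6 by the median or quantiles and Hspa1b by Actb.

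Summed markers of each cell type overlapped between the treatments. The summed intensity of the tubular markers ran from 75455 to 101353 with vehicle and from 71053 to 97313 with aldosterone. Of the fibroblast markers, 2 of the 6 on the array were bright enough to test, Col1a1 and Col1a2, and the sum ran from 5285 to 8604 and from 5393 to 6726. Of the leukocyte markers, 1 of 5, Cd68, was, with sums of 877 to 1252 and 684 to 1170. The intercalated cell markers had 1 of 2, Car2, with sums of 5497 to 6213 and 5057 to 7128. The ranges of vehicle and aldosterone overlapped in each list, and the collecting duct markers, with none bright enough, summed to 928 to 1283 and 687 to 1673.

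Genes whose values ran most like those of Sgk1 were sought over the 6 arrays, as a description without a test. Of 5639 other genes, 14 had a Pearson correlation of at least 0.9 with Sgk1 and 11 of at most -0.9, with a median of -0.01. The points are the same 6 arrays in 2 groups for every gene, so each correlation includes the difference between the groups. The highest were Cyp4a12b at 0.966, Tax1bp3 at 0.964, Ciao1 at 0.952 and Cyb5a at 0.945. Herpud1 at 0.942, Ppp1r2 at 0.938, and Tm2d3 and Rab21 at 0.933 followed. Their own log2 differences between treatments were smaller than that of Sgk1, from 0.21 for Tax1bp3 and Rab21 to 0.64 for Cyp4a12b and 0.78 for Ppp1r2. Dimmer probe sets of 2 of these genes differed. That of Tax1bp3 gave 0.71 (1.27, -0.004 and 0.86 by replication) and that of Ppp1r2 gave 0.22 (0.09, -0.11 and 0.67).

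**Figure D5:**
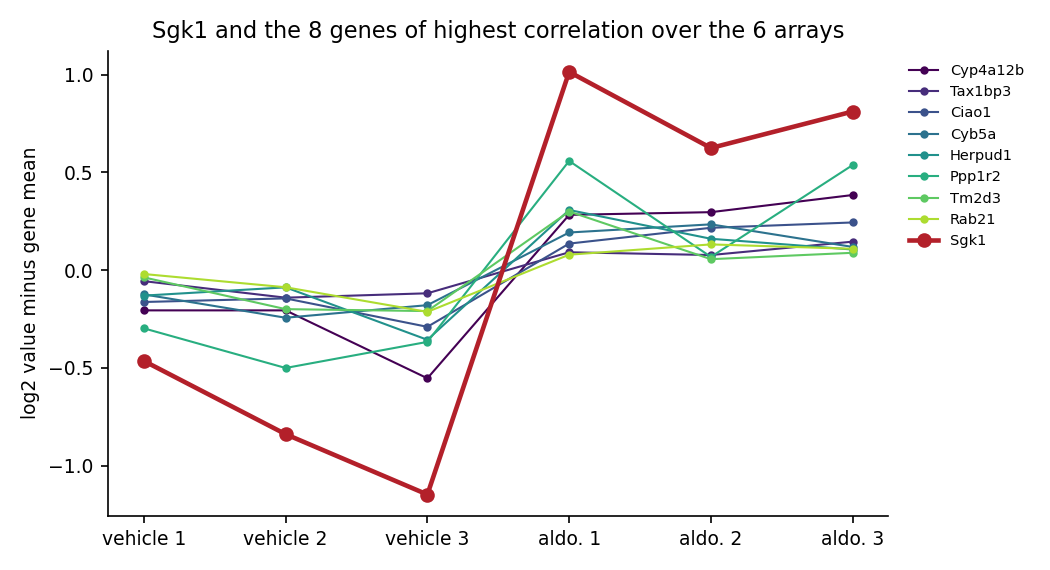
Log2 value on each array minus the gene's mean over the 6 arrays, for Sgk1 (red) and the 8 genes of highest correlation with it; lines join the values of a gene, and replicates have no order. All 8 lie below 0 on the vehicle arrays and above 0 on the aldosterone arrays, over a narrower range than Sgk1.

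Likeness of the 3 within-replication differences, taken as a Euclidean distance on the log2 scale, gave other names. Smyd2 was closest, at 0.343, and the only gene under 1. Probe set 160794_at for it gave 375, 491 and 334 under vehicle and 1165, 1465 and 1134 with aldosterone, with differences of 1.51, 1.48 and 1.62. Another probe set of Smyd2 gave -0.26, 1.27 and -0.61, so the 2 disagree. Next were Per1 at 1.06, Edn1 at 1.197, Trabd at 1.26, and Cebpd and Dusp1 at 1.34. The replications of Per1 gave 1.27, 1.58 and 0.92, lowest where Sgk1 was highest, and those of Cebpd gave 0.51, 0.79 and 1.33, highest where Sgk1 was.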

How the data were processed

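RNA of vehicle- and aldosterone-treated mIMCD3 cells was measured on 6 single-colour oligonucleotide arrays. The authors deposited 1 intensity per probe set and array on a linear scale. The sources used here name no software, scaling target, background correction or genome build. The number of arrays limits the precision.

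Each array was scaled so that its trimmed mean (a fraction of 0.02 left out at each end) equalled 2090, because the trimmed means differed by over 10%. The factors were 0.838 to 0.840 and, for the aldosterone array of replication 3, 24.2. Values were converted to log2(intensity + 53.0), and the 7453 of 12422 probe sets with a mean of at least 8.87 were tested with limma 3.58.1 in R 4.3.3 (lmFit, eBayes with an intensity trend, two-sided, Benjamini-Hochberg). Symbols came from the platform annotation: 10833 probe sets had 1, 396 several and 1193 none. Promoter windows came from RefSeq (GRCm38.p6) and were matched by symbol for 4591 of 5640 tested genes.

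The replication number was a block in an alternative. It pairs the arrays, since per the labels each replication repeats the experiment, and deviations of the same number correlated at 0.377, 0.387 and 0.471, those of different numbers at -0.279 to -0.0853. The text names 62 genes by a rule: the list genes of smallest p and highest intensity, a fixed set of pathway genes, the genes most like Sgk1 and the largest differences. Mtor, Mlst8, Prr5, Atp1b1, Klf9 and Fkbp5 lie outside it, were named after their values were seen and were not run under the alternatives. The members and lists were chosen with earlier results of these data known. The scripts were tested on simulated data. Alternatives were other scalings, pseudocounts, filters, no trend, the block and leaving out arrays. Scaling by Actb, the block without a trend and the block without 1 replication were added after seeing the data.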

Additional observations from a re-analysis of the deposited data

How the results depend on the processing

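Sgk1 was higher with aldosterone under all 22 alternatives run (17 planned, 5 added), with log2 differences of 1.47 to 1.81, or 2.76- to 3.50-fold. Its adjusted p was 0.0960 with scaling by the median, 0.233 with quantile normalization, 0.975 with scaling by Actb, and 0.203 to 0.9999 when arrays were left out on group alone, where 0 probe sets were called except without vehicle replicate 2, when 1 without a gene name was. With the replicate block it was 0.0509 with an intensity trend, 0.339 without one, and 0.595 without replication 1. It passed 0.05 with the block without replication 2, at 1.72 and adjusted p = 0.000391, where 19 probe sets and 5 list genes (Per1, Edn1, Cebpd, Dusp1, Ccn2) were called, and without replication 3, at 1.47 and adjusted p = 0.00592, where 9 probe sets and 3 list genes (Per1, Edn1, Ccn2) were. These fits leave few residual degrees of freedom. Their SEs for Sgk1, 0.210 and 0.230, were larger than the 0.176 of the block with all 3 replications, so the smaller p is no stronger evidence. With all 3 replications the block changed no call. At an unadjusted p under 0.05 there were 72 probe sets, and 250 with the block, 262 with no filter, 38 with the filter at the 60th percentile and 21 with scaling by Actb. Scaling by Actb moved the difference of Sgk1 to 1.76 in replication 2 and 1.43 in replication 3. The planned scaling by control probe sets was not run, because control probe sets are not used here, and scaling by Actb was added in its place. The difference between replications ran from 0.33 to 0.68 when arrays were left out and was not called.

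Of 62 named genes, 37 kept their direction in every alternative that gave a value and 25 turned in at least 1; the cause was not tested. All 22 alternatives gave a value for 23 of the 37, and 14 to 21 did for the other 14, whose probe sets fell below the filter in the rest. On leaving out arrays, the log2 differences ran as follows: Ncoa1 -0.041 to 0.51, Nr3c1 -0.46 to 0.49, Hsp90aa1 -0.12 to 0.19, Fkbp4 -0.13 to 0.13, Wnk1 -0.17 to 0.061, Mapk14 -0.14 to 0.088, Akt1 -0.22 to 0.050, Akt2 -0.032 to 0.31, Rps6kb2 -0.065 to 0.31, Pkn2 -0.30 to 0.23, Nedd4l -0.00068 to 0.23, Skp1 -0.090 to 0.23, Stub1 -0.14 to 0.031, Cul1 -0.074 to 0.071, Ywhaq -0.15 to 0.042, Ywhaz -0.12 to 0.26, Ranbp1 -0.27 to 0.062, Atf3 -0.11 to 0.54, Plk2 -0.71 to 0.44, Ier3 -0.41 to 0.32, Hspa1a -0.29 to 0.061, Hspa1b -0.14 to 0.16, Slc38a2 -0.25 to 0.16, Slc6a6 -0.13 to 0.076, Ndrg1 -0.16 to 0.034. Of the genes that kept their direction, 20 moved by over 1.5 times: Ncoa2 0.39 to 0.71, Ncoa3 0.026 to 0.38, Pik3r1 0.14 to 1.03, Map2k5 -0.37 to -0.14, Pdpk1 0.079 to 0.36, Usp2 0.24 to 0.67, Slc9a3r2 -0.50 to -0.090, Slc1a5 -0.45 to -0.19, Bad -0.37 to -0.13, Gsk3a -0.13 to -0.031, Dusp1 0.54 to 1.22, Ccn2 0.20 to 1.73, Errfi1 0.14 to 0.78, Fosb 0.11 to 0.46, Klf6 0.046 to 0.82, Hspa4l -0.21 to -0.022, Rag1 0.86 to 2.05, Slc6a2 -1.56 to -0.34, H2-M10.1 -1.88 to -0.41, Mok -1.54 to -0.34. With scaling by the median, Hsp90aa1 gave 0.024, Fkbp4 gave 0.025, Slc6a6 gave 0.024. With quantile normalization, Slc6a6 gave 7.3e-05. With scaling by Actb, Pkn2 gave -0.037, Cul1 gave -0.047, Hspa1b gave -0.0021. With the replicate block and without replication 1, Hsp90aa1 gave 0.19, Ywhaz gave -0.054, Ier3 gave 0.014, Hspa1a gave 0.061, Hspa1b gave -0.046, Ndrg1 gave 0.022. With the replicate block and without replication 2, Nr3c1 gave -0.46, Fkbp4 gave 0.13, Nedd4l gave -0.00068, Cul1 gave -0.0077, Ranbp1 gave 0.062, Slc6a6 gave 0.060. With the replicate block and without replication 3, Wnk1 gave 0.013, Rps6kb2 gave -0.0031, Pkn2 gave -0.30, Cul1 gave -0.0034, Slc38a2 gave 0.011, Slc6a6 gave 0.054.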

Other observations

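Of the list genes on the array, 18 were too dim to test at the filter used, and those named here were chosen after their values were seen. In 2 of them all aldosterone arrays lay above all vehicle arrays, and in 2 all lay below. The share of all dim probe sets that separate in this way was not computed, so these counts are no result about the list genes. Slc6a12, the betaine transporter that hypertonic stress induces in the kidney medulla, read 176, 162 and 35.8 with vehicle in replications 1, 2 and 3, then 311, 428 and 222 with aldosterone, a log2 difference of 1.15. Kcnj1, the gene of the potassium channel ROMK, which Sgk1 is known to regulate, gave 0.59, and its other probe set gave -0.43. Ndrg2, a substrate of Sgk1, gave -0.50 and -0.43 at its 2 probe sets, and Hsd11b2, which inactivates cortisol and corticosterone, gave -0.44 and -1.39. Without the filter, limma called 0 of 12422 probe sets, and 262 had an unadjusted p under 0.05.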
